A study of Mus musculus with 30 samples.

Results

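Chemokines and secreted cytokines were represented by 10 of the 55487 genes in the count table, namely the chemokines Ccl2, Ccl7, Cxcl1, Cxcl5, Cxcl10, Cxcl12 and Cxcl14 and the cytokines Il6, Lif and Csf1. They were chosen by name, with earlier results of these data known, and their rows were found by mouse Ensembl identifier. Of the 10, 7 passed the filter on low counts and could be tested, and 3 (Ccl2, Cxcl5 and Cxcl10) did not. RNA-sequencing had been done on C2C12 myotubes, which form by fusion of a wild-type mouse myoblast line and were studied as a culture model of muscle fibres. The cells of all 30 samples differentiated for 4 days in low-glucose medium with 2% horse serum. For 4 further days, 6 replicates stayed in that medium (2% HS), 6 had no serum (serum deprivation, SD), and 3 sets of 6 had no serum with 100 nM metformin (MET), with 500 nM leucine (LEU) or with both agents (MET+LEU). Libraries held between 12784960 and 19604103 counts, and no pair was identical. The labels do not say whether the replicates were separate cultures or give a batch, so p-values measure the spread between these samples, which may be technical. In bulk RNA of this kind, fewer cells of a type and less RNA per cell cannot be told apart.

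Chemokines are small secreted proteins that bind G protein-coupled receptors and direct the movement of leukocytes and progenitor cells. Il6 and Lif signal through receptor complexes that share the subunit Il6st (gp130) and activate the JAK-STAT pathway, and Csf1 supports the survival of macrophages through its receptor Csf1r. Muscle cells are a known source of several of these factors, and many of their genes are known targets of the transcription factor NF-kB.

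Promoter sequence was looked up because the members whose levels moved together could be compared there. RefSeq promoter windows (GRCm38.p6) matched 7 of the 10 genes, and Ccl2, Ccl7 and Cxcl5 had no entry. In the 250 bases before the start, on both strands, the NF-kB consensus (kB) was found in Cxcl1, Cxcl10, Il6, Lif and Csf1, so in 5 of 7 windows, where 7.25% of all 32851 windows held it. The AP-1 motif TGANTCA was found in 3 of 7 (Cxcl10, Il6 and Lif), with 6.75% of all windows. The interferon-stimulated response element GAAANNGAAA was found in Cxcl10 and Cxcl14, with 2.98% of all windows. The GC box GGGCGG was found in Cxcl12 and Csf1, with 32.7% of all windows, and the TATA box TATAAA in 0 of 7, with 12.4%. In these 7 windows no match of one motif overlapped a match of another, and in Cxcl1 the kB consensus matched on both strands at overlapping positions. A match describes letters in a window and is not evidence of binding. The stretches around the kB matches of Cxcl1, Csf1, Il6 and Lif are shown because these 4 genes held the same motif and could be tested. By the test given below, Cxcl1 and Csf1 were called higher in SD vs. 2% HS and Il6 and Lif were not called. Differences between the 4 genes were not tested. The match is in capitals.
Cxcl1, chr5:90891149-90891209, plus strand: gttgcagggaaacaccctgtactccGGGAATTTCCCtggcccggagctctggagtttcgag
Csf1, chr3:107760589-107760648, minus strand: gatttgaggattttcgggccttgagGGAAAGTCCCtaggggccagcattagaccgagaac
Il6, chr5:30013045-30013104, plus strand: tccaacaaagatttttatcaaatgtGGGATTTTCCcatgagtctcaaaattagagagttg
Lif, chr11:4257365-4257424, plus strand: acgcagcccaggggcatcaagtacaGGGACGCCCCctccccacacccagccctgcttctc

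The last 100 bases before the start of Cxcl12 and Cxcl14 are shown beside them because both transcripts were higher in SD and neither window held the kB consensus. Capitals mark GC boxes on either strand, which Cxcl12 held and Cxcl14 did not.
Cxcl12, chr6:117168435-117168534, plus strand: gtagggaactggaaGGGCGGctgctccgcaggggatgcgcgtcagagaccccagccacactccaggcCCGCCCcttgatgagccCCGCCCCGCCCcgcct
Cxcl14, chr13:56296552-56296651, minus strand: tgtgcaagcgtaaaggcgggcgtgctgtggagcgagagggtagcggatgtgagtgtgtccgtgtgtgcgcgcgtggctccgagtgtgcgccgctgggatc

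Levels were compared between genes as TMM-scaled CPM (a library's counts on a gene relative to its total) per kilobase of exon. Exon length was the union over all annotated transcripts, for example 8176 bases for Cxcl12 (4 transcripts) and 801 for Ccl7 (1). Which transcripts were expressed was not tested, so the order of the genes depends on this length. Before division by it, mean CPM in 2% HS was 29.2 for Cxcl12 and 2.54 for Ccl7. In 2% HS, Csf1 had the highest mean level, at 24.2 ± 1.201 CPM per kb (standard deviation, n = 6), and Cxcl14 followed at 14.5 ± 1.07. Lif (4.32 ± 0.315), Cxcl12 (3.57 ± 0.271) and Ccl7 (3.17 ± 0.239) formed a middle group, in which Lif lay above both others and Cxcl12 and Ccl7 overlapped. Il6 was at 0.560 ± 0.206, and Ccl2, Cxcl1, Cxcl5 and Cxcl10 lay between 0.107 and 0.293, each overlapping its neighbour in the order. In SD the order of the middle group was Cxcl12 (4.66 ± 0.372), Ccl7 (3.99 ± 0.886) and Lif (3.72 ± 0.537), with overlap between neighbours. With MET+LEU, Lif (2.93 ± 0.376) lay below Ccl7 (4.79 ± 0.322) and Cxcl12 (4.48 ± 0.279) without overlap. Csf1 stayed above Cxcl14, and Cxcl14 above the remaining 8, in these 3 groups.

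**Figure D1:**
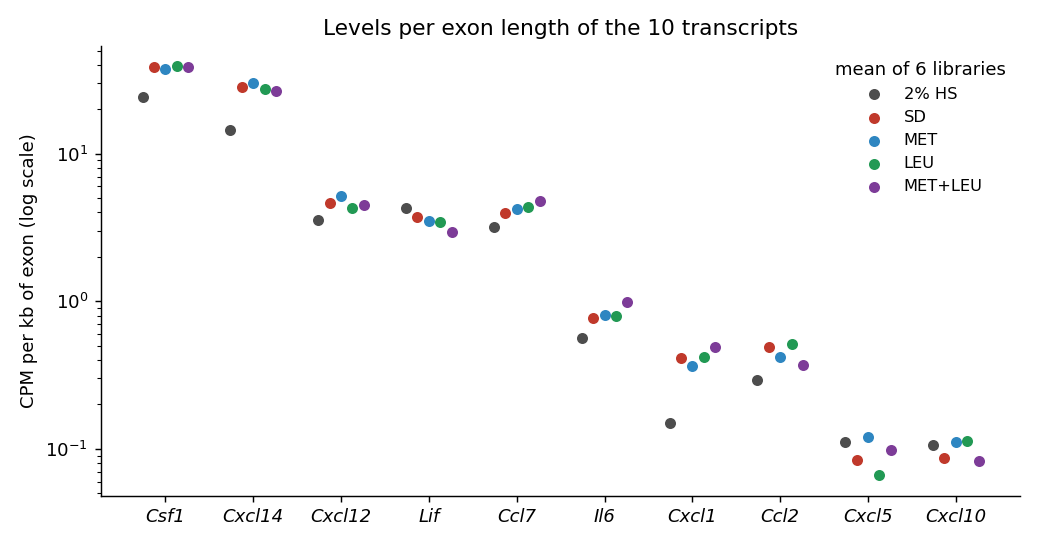
Mean level of each of the 10 transcripts in CPM per kilobase of exon (vertical axis, log scale) in the 5 groups of 6 libraries (colours). Csf1 and Cxcl14 lie highest in each group, and Cxcl5 and Cxcl10 near 0.1 CPM per kb.

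Removing serum was accompanied by higher levels of 4 of the 7 tested genes, namely Csf1, Cxcl14, Cxcl12 and Cxcl1, while 0 were called lower. Over all 15907 genes tested in SD vs. 2% HS, 27.8% were called at an adjusted p under 0.05, 13.9% higher and 13.9% lower. Each p is from edgeR's quasi-likelihood test, adjusted by Benjamini and Hochberg's method across the 15907 genes, and CPM in the following are TMM-scaled. Cxcl1 passed the filter through the groups without serum, since its counts in 2% HS did not exceed 7 per library, so its call was favoured by the filter. Without it, 3 of 6 were called.

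Cxcl12 (ENSMUSG00000061353, chr6:117168535-117181367, plus strand), a chemokine expressed by many resting tissues that binds Cxcr4, had between 25.9 and 31.7 CPM in 2% HS (median 29.6) and between 34.1 and 40.8 in SD (median 38.5). It lay between 39.0 and 44.9 with MET (median 42.2), between 31.3 and 37.0 with LEU (median 35.8) and between 32.1 and 38.3 with MET+LEU (median 37.2). All SD libraries lay above all 2% HS libraries, and the MET libraries lay above those of LEU and MET+LEU. The difference in SD vs. 2% HS was 0.38 on the log2 scale (SE 0.06, adjusted p = 4.73e-07). With MET alone it was 0.15 above SD (unadjusted p = 0.00881, adjusted p = 0.315) and with LEU alone -0.11 (unadjusted p = 0.0491, adjusted p = 0.496), neither past the threshold.

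Cxcl14 (ENSMUSG00000021508, chr13:56288643-56296551, minus strand), a chemokine expressed in epithelia and muscle, showed the largest SD vs. 2% HS difference among the members with more than 100 counts in each library. It had between 23.4 and 29.1 CPM in 2% HS (median 26.5) and between 45.6 and 56.3 in SD (median 52.4). The ranges were 50.6 to 59.4 with MET (median 55.4), 46.7 to 54.3 with LEU (median 49.5) and 41.8 to 51.3 with MET+LEU (median 49.8). Every library without serum lay above every 2% HS library, and the 4 groups without serum overlapped one another. In SD vs. 2% HS the log2 difference was 0.97 (SE 0.06, adjusted p = 1.89e-18), a fold of 1.96.

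Cxcl1 (ENSMUSG00000029380, chr5:90891241-90893115, plus strand), a ligand of Cxcr2 that attracts neutrophils, was a rare transcript. Its counts were between 1 and 7 per library in 2% HS and between 8 and 15 in SD, which correspond to 0.0633 to 0.456 CPM (median 0.293) and 0.499 to 0.928 CPM (median 0.809). The 2 groups did not overlap. The log2 difference was 1.46 (SE 0.38, 95% interval 0.70 to 2.22, adjusted p = 0.00237), a fold of 2.75 whose interval is wide because the counts are low. The MET libraries lay between 0.377 and 1.15 CPM (median 0.498), LEU between 0.521 and 1.14 (median 0.759) and MET+LEU between 0.439 and 1.296 (median 1.10), and all 3 groups overlapped with SD.

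Cxcl5 (ENSMUSG00000029371, chr5:90759360-90761624, plus strand), another neutrophil attractant 130 kb from Cxcl1, was near the limit of detection. Its counts were between 0 and 7 per library, above 3 in 9 of 30 and at 0 in 3. A count of 0 allows up to 3 counts, or between 0.153 and 0.235 CPM depending on the library, and this limit covers counting error only. With all genes above 5 total counts in the test, Cxcl5 was at -0.39 (log2) in SD vs. 2% HS (SE 0.63, adjusted p = 0.76), so a difference was not detectable at this depth.

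Ccl2 (ENSMUSG00000035385, chr11:82035571-82037453, plus strand) and Ccl7 (ENSMUSG00000035373, chr11:82045712-82047525, plus strand) attract monocytes and lie 8.26 kb apart. Ccl2 was below the filter, with between 2 and 17 counts per library and more than 3 in 28 of 30. Its SD libraries lay between 0.437 and 0.664 CPM (median 0.558) and its 2% HS libraries between 0.155 and 0.415 (median 0.388), without overlap, while LEU (0.352 to 0.967) and MET+LEU (0.220 to 0.810) spanned both. With the looser filter its log2 difference was 0.71 between SD and 2% HS (SE 0.39, adjusted p = 0.234). MET+LEU vs. SD was at -0.43 (SE 0.38, adjusted p = 0.557). Ccl2 overlaps the antisense gene Gm17268, and the strand setting of the counting is not given in the sources used here, so its reads may not all be its own.

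Ccl7 was more abundant, at 32 to 67 counts per library. It had between 2.22 and 2.77 CPM in 2% HS (median 2.55), between 2.13 and 3.92 in SD (median 3.31), between 2.62 and 3.91 with MET (median 3.49), between 2.90 and 4.22 with LEU (median 3.36) and between 3.49 and 4.14 with MET+LEU (median 3.79). The SD libraries were the most spread and overlapped every other group, whereas those of LEU and of MET+LEU lay above all 2% HS libraries. The SD vs. 2% HS difference of 0.32 (log2, SE 0.15) had an adjusted p of 0.101 and did not pass. SD replicate 1 held the lowest value, and without it the difference was 0.42 with an adjusted p of 0.0272.

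Cxcl10 (ENSMUSG00000034855, chr5:92346638-92348889, minus strand), an interferon-induced chemokine that attracts T cells through Cxcr3, was also near the limit. It had between 0 and 7 counts per library, with more than 3 in 13 of 30 and 0 in 1. With the looser filter the log2 difference in SD vs. 2% HS was -0.34 (SE 0.60, adjusted p = 0.786). Its gene body overlaps the antisense gene Art3, with the same limit on strand as for Ccl2.

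Csf1 (ENSMUSG00000014599, chr3:107741048-107760469, minus strand), the growth factor of the macrophage lineage, was the most abundant member, with at least 1606 counts in each library. It had between 119 and 135 CPM in 2% HS (median 128) and between 185 and 224 in SD (median 204). With MET the range was 186 to 215 (median 196), with LEU 191 to 218 (median 208) and with MET+LEU 192 to 219 (median 207). The 24 libraries without serum lay above the 6 with serum and overlapped one another. The log2 difference in SD vs. 2% HS was 0.68 (SE 0.04, adjusted p = 2.09e-18), a fold of 1.603. Adding the agents left intervals around 0, from -0.13 to 0.03 for MET vs. SD, from -0.07 to 0.09 for LEU vs. SD and from -0.08 to 0.09 for MET+LEU vs. SD.

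Il6 (ENSMUSG00000025746, chr5:30013114-30019981, plus strand), a cytokine that contracting muscle releases, had between 7 and 59 counts per library. Its values were 0.456 to 1.87 CPM in 2% HS (median 1.52), 1.31 to 2.64 in SD (median 1.68), 1.57 to 2.33 with MET (median 1.96), 1.11 to 2.60 with LEU (median 2.06) and 1.92 to 3.38 with MET+LEU (median 2.29). The medians of the groups without serum exceeded that of 2% HS, and only the MET+LEU libraries were clear of it. The log2 difference in SD vs. 2% HS was 0.45 (SE 0.23, adjusted p = 0.146) and did not pass.

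Lif (ENSMUSG00000034394, chr11:4257557-4272514, plus strand), an Il6-family cytokine that acts on myoblasts and stem cells, was the only tested member with a negative value in SD vs. 2% HS. It had between 17.2 and 20.8 CPM in 2% HS (median 18.6), between 13.2 and 19.6 in SD (median 16.5), between 13.2 and 16.5 with MET (median 15.7), between 13.5 and 16.2 with LEU (median 15.2) and between 9.96 and 14.2 with MET+LEU (median 13.1). The MET, LEU and MET+LEU libraries lay below all 2% HS libraries, and the SD libraries spanned both sides. SD vs. 2% HS was -0.21 (log2, SE 0.08, adjusted p = 0.0543), just outside the threshold. This call turned on single libraries: the adjusted p was 0.0104 without SD replicate 1 (the highest SD value), 0.0295 without MET+LEU replicate 6, 0.0394 without 2% HS replicate 2, 0.0434 without SD replicate 4, 0.0463 without 2% HS replicate 1 and 0.0481 without MET+LEU replicate 2. It also turned on the fit, with an adjusted p of 0.0381 under upper-quartile scaling and 0.0454 with a block for the replicate number.

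**Figure D2:**
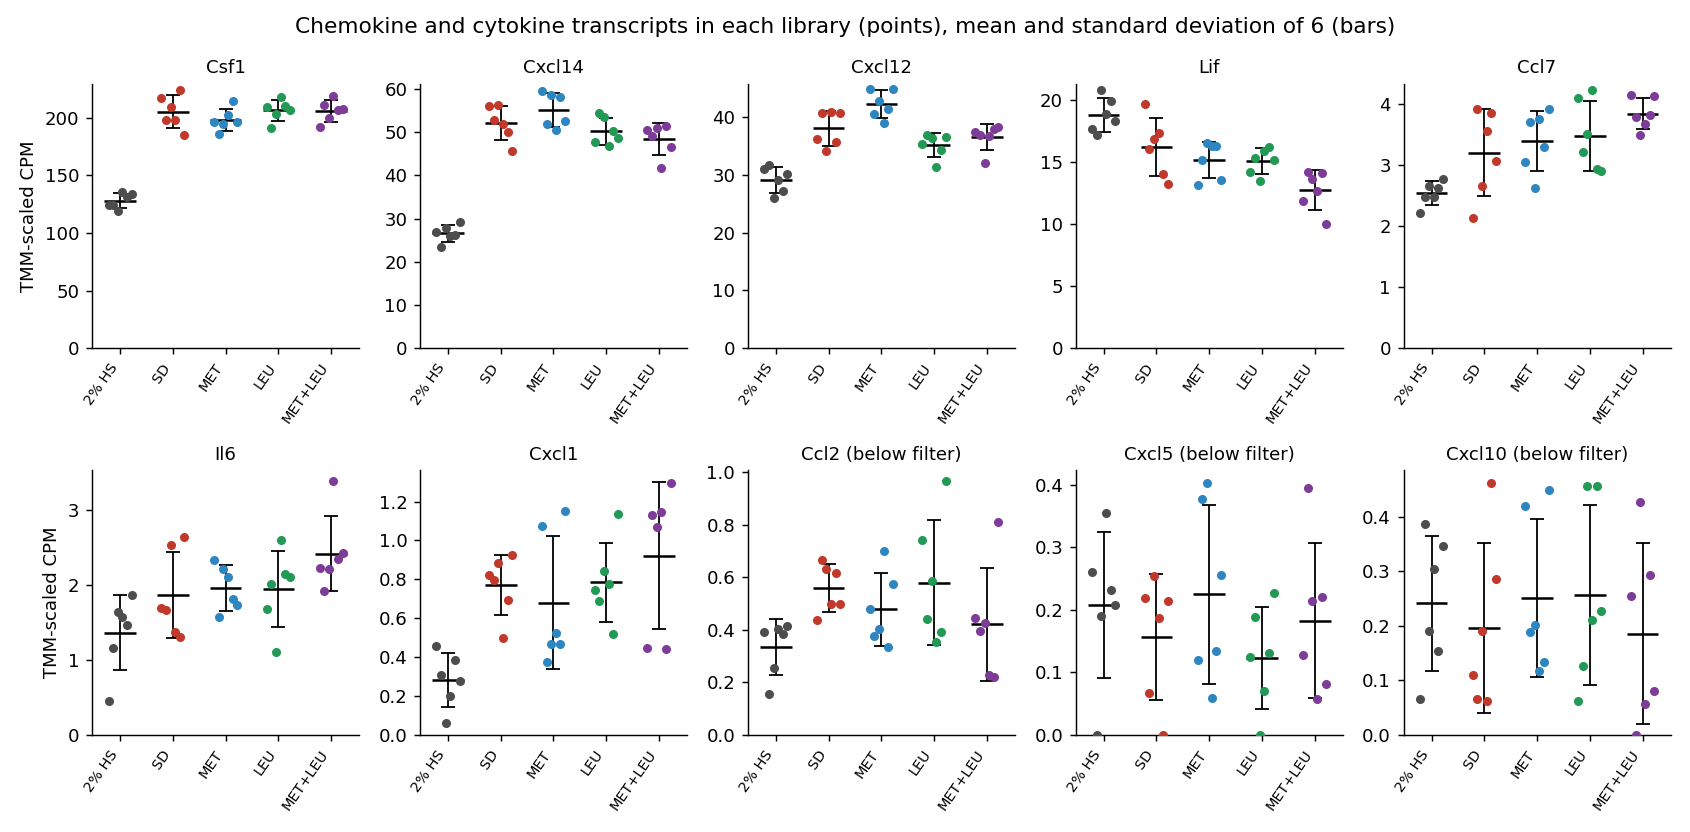
TMM-scaled CPM (vertical axes, from 0) of the 10 transcripts in each library (points) of the 5 groups, with the mean and standard deviation of 6 libraries (bars). Csf1 in 2% HS lies between 119 and 135 and in all other groups at 185 or above, and Lif reaches its lowest value, 9.96, with MET+LEU.

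The agents were then compared with SD, the question being whether metformin, leucine or their combination moved the factors in cells without serum. These comparisons share the 6 SD libraries. With MET alone 0 of 7 members were called, where 0.157% of all genes tested were (0.0754% higher and 0.0817% lower), and with LEU alone 0 of 7, where 0.553% were (0.233% higher and 0.321% lower). At an unadjusted p under 0.05 there was 1 member in each, Cxcl12. DESeq2 called 0 of the 4 members for which it gave an adjusted p with MET (not Ccl7, Il6 and Cxcl1) and 0 of 6 with LEU (not Cxcl1). With MET+LEU, 1 of 7 was called, Lif, where 18.4% of all genes tested were called (10.6% higher and 7.8% lower, with 1446 higher and 1556 lower under upper-quartile scaling). Lif fell by 0.35 on the log2 scale (SE 0.09, 95% interval -0.52 to -0.17, adjusted p = 0.00306), to 0.786 of its SD level, with overlap between the groups. The lowest value, 9.96 CPM, belonged to MET+LEU replicate 6, a library with 5.85% of its counts on nuclear and 7.64% on mitochondrial ribosomal RNA, where the other 29 held at most 1.96% and 0.76%. Without that library Lif was at -0.30 with an adjusted p of 0.0101, and the numbers of members called in MET+LEU vs. SD (1) and vs. 2% HS (7) were the same.

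The 4 genes called higher in SD were not called lower again with MET+LEU. MET+LEU vs. SD was 0.00 for Csf1 (95% interval -0.08 to 0.09, adjusted p = 0.952), -0.11 for Cxcl14 (-0.22 to 0.00, adjusted p = 0.168), -0.06 for Cxcl12 (-0.17 to 0.06, adjusted p = 0.533) and 0.26 for Cxcl1 (-0.35 to 0.87, adjusted p = 0.615). Ccl7 was at 0.27 (SE 0.14, adjusted p = 0.177) and Il6 at 0.38 (SE 0.21, adjusted p = 0.227).

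Set against cells that kept their serum, MET+LEU cells differed in all 7 tested members, 6 of them higher and Lif lower, where 42.3% of all genes tested were called (22.1% higher and 20.3% lower). This comparison shares its libraries with the 2 above. Csf1 was at 0.69 (log2, adjusted p = 1.28e-18), Cxcl14 at 0.86 (adjusted p = 1.13e-16), Cxcl12 at 0.33 (adjusted p = 7.25e-06) and Lif at -0.56 (adjusted p = 5.93e-07). Ccl7 rose by 0.60 (SE 0.15, adjusted p = 0.000793) and Il6 by 0.82 (SE 0.22, adjusted p = 0.00234), both without overlap between the groups. Cxcl1 rose by 1.72 (SE 0.37, adjusted p = 0.000157), here with overlap, and the filter favoured it as described. Ccl7 and Il6 were thus past the threshold against 2% HS with MET+LEU and not with SD, while their difference between MET+LEU and SD was itself not past it.

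**Figure D3:**
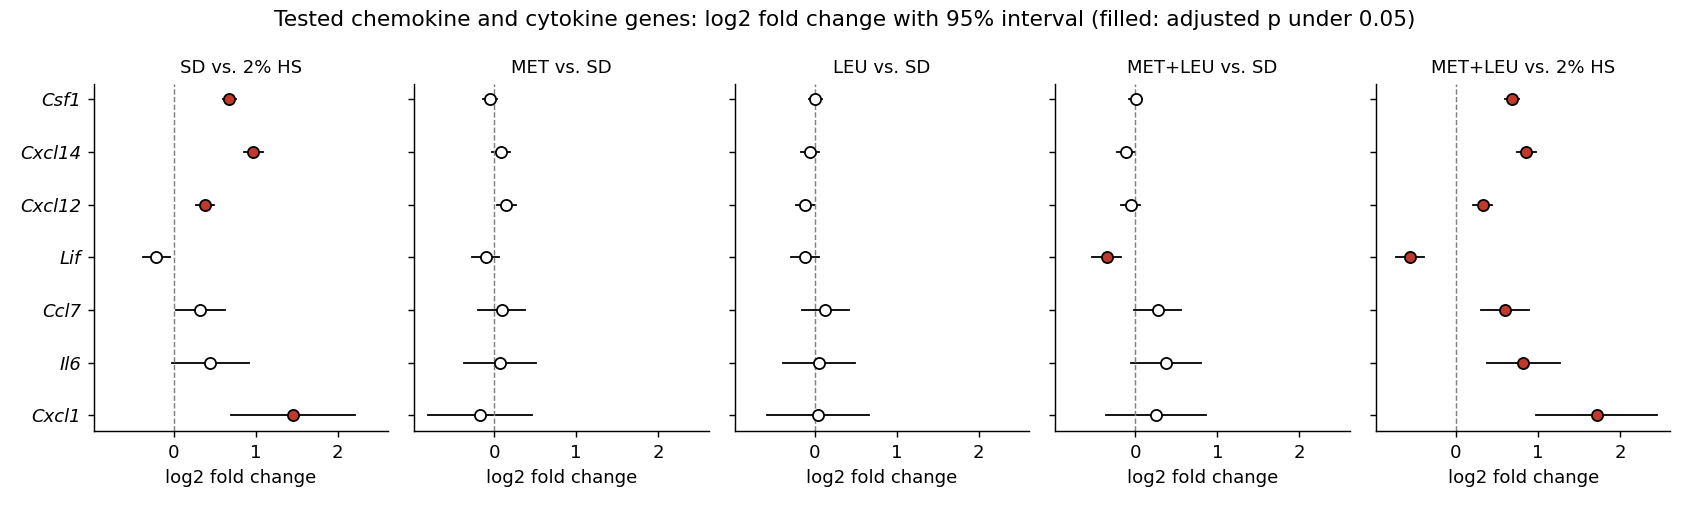
Log2 fold change (horizontal axes) with its 95% interval for the 7 tested genes in 5 comparisons, filled where the adjusted p of edgeR's quasi-likelihood test was under 0.05. In SD vs. 2% HS 4 points are filled, in MET+LEU vs. SD only Lif, and in MET+LEU vs. 2% HS all 7.

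The combination was also set against each agent alone. In MET+LEU vs. LEU 0 of 7 members were called, where 6.28% of all genes tested were (4.61% higher and 1.67% lower), and DESeq2 called 0 of the 6 for which it gave an adjusted p (not Cxcl1). At an unadjusted p under 0.05 there was 1, Lif (-0.23, adjusted p = 0.0931). In MET+LEU vs. MET 2 of 7 were called, where 8.69% were (5.54% higher and 3.15% lower), and both were lower. Cxcl12 fell by 0.21 (SE 0.06, adjusted p = 0.0138) without overlap between the groups, and Cxcl14 fell by 0.19 (SE 0.06, adjusted p = 0.0239) with overlap. The Cxcl14 call was lost without MET+LEU replicate 4 (adjusted p = 0.0603) and without MET replicate 1 (adjusted p = 0.0559). Lif, at -0.24 with an adjusted p of 0.0658, was called when any of 7 libraries was left out, with adjusted p-values from 0.0377 without MET+LEU replicate 2 to 0.0498 without SD replicate 5, the others being SD replicates 1 and 6, MET replicates 1 and 6 and MET+LEU replicate 5, and it was at 0.182 without MET+LEU replicate 6. DESeq2's Wald test also called Lif in MET+LEU vs. MET (adjusted p = 0.0465), as did edgeR's test under upper-quartile scaling (adjusted p = 0.0479). A test of the interaction of MET and LEU called 0 of 7 members, where 0.0503% of all genes tested were called (0.0377% with a positive and 0.0126% with a negative term). The smallest adjusted p was 0.642, for Cxcl14, 0 members had an unadjusted p under 0.05, and DESeq2 gave an adjusted p for Csf1 alone, which it did not call.

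Ccl2 and Ccl7 belong to a row of chemokine genes on chromosome 11 in which Ccl11 starts 10.3 kb beyond Ccl7. Ccl8 lies 52.2 kb beyond Ccl11, with Ccl12, which did not pass the filter on low counts, between them. Ccl11 (eotaxin), which attracts eosinophils, fell in SD from between 2.66 and 6.57 CPM to between 1.26 and 1.93, without overlap. The log2 difference was -1.38 (SE 0.18, adjusted p = 4.27e-08). With MET+LEU it lay between 2.47 and 3.22 CPM and had risen against SD by 0.86 (SE 0.19, adjusted p = 0.00117). Ccl7, at 0.32 and 0.27 in the same comparisons, passed in neither, and the difference between the neighbouring genes was not tested. Ccl8 was at 0.82 in SD (SE 0.32, adjusted p = 0.0482), a call that was kept in only 10 of 30 fits with a library left out, its adjusted p reaching 0.136 without 2% HS replicate 3.

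**Figure D4:**
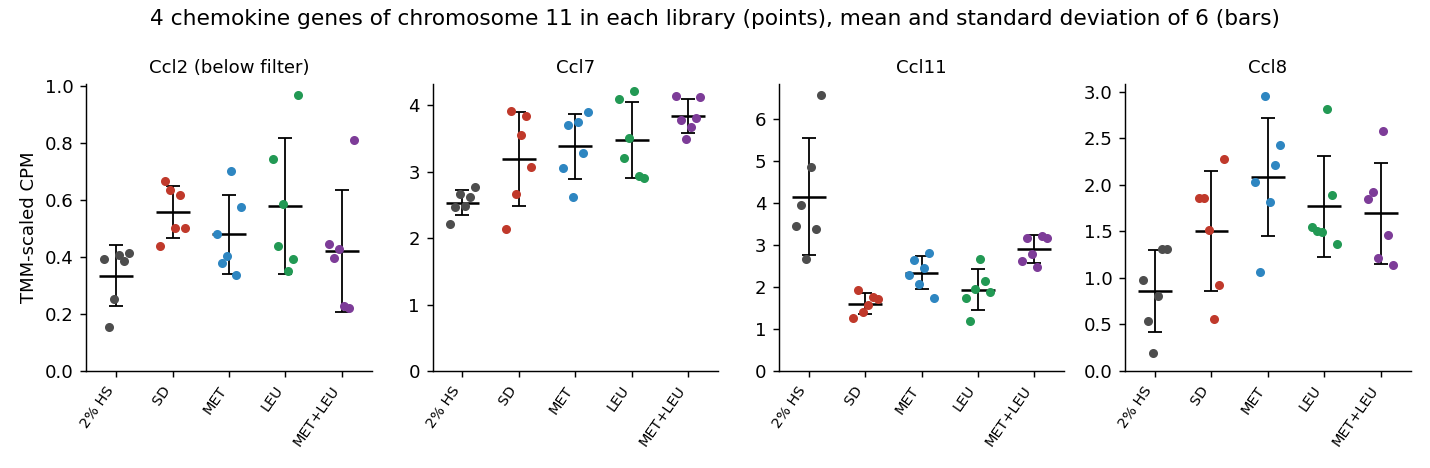
TMM-scaled CPM (vertical axes, from 0) of 4 chemokine genes of chromosome 11 in each library (points), with the mean and standard deviation of 6 (bars). By group means, Ccl11 is highest in 2% HS (4.146) and lowest in SD (1.603), and Ccl7 is highest with MET+LEU (3.837).

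Of 30 other chemokine ligands 5 could be tested, and 3 were higher and 1 lower in SD vs. 2% HS, with a median log2 change of 0.32 where that of all genes tested was 0.00. Over all genes tested 13.9% were called higher and 13.9% lower. The filter on low counts may have favoured higher calls among these 5, as it did for Cxcl1, which was not examined. Cxcl16, a membrane-bound chemokine that can be shed, rose by 1.15 (adjusted p = 9.93e-07), and Cx3cl1 (fractalkine) by 0.32 (adjusted p = 5.86e-05), the remaining higher one being Ccl8. In MET+LEU vs. SD only Ccl11 was called, where 18.4% of all genes tested were. Among the 25 that were not tested, 19 had at most 3 counts in every library.

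Receptors for the members were unevenly present. Csf1r, the receptor of Csf1, could not be tested and did not exceed 12 counts in any library. Of 23 chemokine receptor genes 4 could be tested. Cxcr4, the receptor of Cxcl12, was at 108 to 120 CPM in 2% HS and 108 to 118 in SD and was not called (0.00, adjusted p = 0.947). Ackr3, which binds and clears Cxcl12, fell by 0.33 (adjusted p = 4.81e-05). Cxcr6, the receptor of Cxcl16, rose by 1.51 (adjusted p = 0.000591) from between 2 and 9 counts per library to between 10 and 16, and like Cxcl1 it passed the filter through groups without serum. The remaining 19 included Ccr2 and Cxcr2, receptors of Ccl2 and Cxcl1, both at 0 in all 30 libraries.

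Il6st, the subunit shared by Il6 and Lif, was at 385 to 430 CPM in 2% HS and 393 to 412 in SD (0.00, adjusted p = 0.942). Lifr, the receptor of Lif, fell by 0.09 in SD (SE 0.03, adjusted p = 0.0155), and Il6ra, at 9.70 to 14.8 CPM in SD, was not called (0.03, adjusted p = 0.832). Of 44 cytokine receptor and JAK-STAT genes 37 were tested. In SD vs. 2% HS 8 were higher and 6 lower (median 0.02), where 27.8% of all genes tested were called. In MET+LEU vs. SD 2 were higher and 4 lower (median -0.01), where 18.4% of all genes tested were called. Il1rl1, the receptor of Il33, rose by 2.05 in SD (SE 0.31, adjusted p = 6.58e-07). Whether the filter on low counts favoured this rise, as it did for Cxcl1, was not examined. Il1r1 rose by 0.42 (adjusted p = 4.8e-07) and the phosphatase gene Ptpn11 by 0.21 (adjusted p = 1.12e-06), while Stat5a fell by 0.26 (adjusted p = 5.41e-06). With MET+LEU the genes with the smallest p were Pias3 (-0.25), Ifnar2 (0.23), Socs7 (-0.17) and Jak2 (0.17, adjusted p = 0.0828 without SD replicate 1).

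Other cytokines moved in both directions as well. Of 47 genes 19 were tested, with 6 higher and 3 lower in SD vs. 2% HS (median 0.21), where 27.8% of all genes tested were called. In MET+LEU vs. SD 1 was higher and 2 lower (median -0.04), where 18.4% of all genes tested were called. Il1rn, the natural antagonist of the Il1 receptor, rose by 1.76 in SD (SE 0.22, adjusted p = 8.09e-09) and Il16 by 1.58 (SE 0.21, adjusted p = 6.07e-08). Whether the filter on low counts favoured these rises, as it did for Cxcl1, was not examined. Il34, which shares its receptor with Csf1, rose by 0.93 (adjusted p = 1.49e-05). Mif fell by 0.38 (adjusted p = 4.2e-05). With MET+LEU, Clcf1, a cytokine that acts through Il6st, fell by 0.25 (adjusted p = 0.00201). Tslp was at 0.74 (adjusted p = 0.0325) and kept its call in 22 of 30 fits with a library left out (adjusted p = 0.0811 without SD replicate 6).

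**Figure D5:**
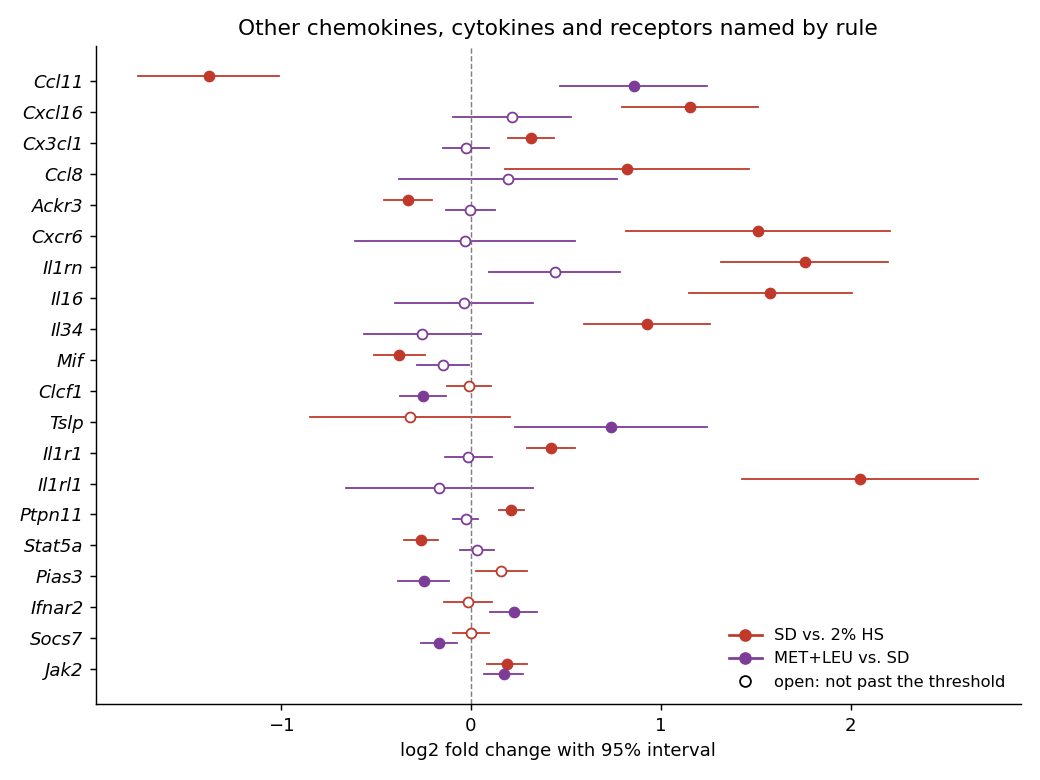
Log2 fold change with its 95% interval (horizontal axis) for other chemokines, cytokines, receptors and JAK-STAT genes in SD vs. 2% HS (red) and MET+LEU vs. SD (purple), filled where called by edgeR's quasi-likelihood test. Ccl11 is filled on both sides of 0, at -1.38 and 0.86.

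Genes of the NF-kB pathway were listed because the kB consensus stands before 5 of the members. Of 17, 16 were tested, with 1 higher and 1 lower in MET+LEU vs. SD, where 18.4% of all genes tested were called. In SD vs. 2% HS 5 were higher and 2 lower (median 0.04), where 27.8% of all genes tested were called. Nfkbia, the inhibitor that NF-kB itself induces, rose by 0.60 (adjusted p = 4.88e-09) and Nfkb2 by 0.25 (adjusted p = 2.82e-05), while the deubiquitinase gene Cyld fell by 0.26 (adjusted p = 1.31e-08) and Bcl3 by 0.34 (adjusted p = 0.000353). In MET+LEU vs. SD, Nfkb2 fell by 0.18 (adjusted p = 0.00427) and Tnip1 was at 0.14 (adjusted p = 0.0324, kept in 23 of 30 fits with a library left out and at 0.12 without MET+LEU replicate 1). Of 12 regulators of cytokine mRNA decay, all tested, Zfp36l2 rose by 0.19 (adjusted p = 0.00732) and Tia1 fell by 0.27 (adjusted p = 5.91e-06) in SD. In both comparisons 1 of the 12 was called higher and 1 lower, against the same shares of all genes tested. With MET+LEU, Hnrnpd rose by 0.28 (adjusted p = 0.00382) and Zc3h12a, which encodes an RNase that cleaves Il6 mRNA, fell by 0.24 (adjusted p = 0.0292, kept in 26 of 30 such fits and at 0.0868 without SD replicate 1). With only the SD and MET+LEU libraries in the fit, 7 of the genes named here for MET+LEU vs. SD (Tslp, Pias3, Socs7, Jak2, Tnip1, Hnrnpd and Zc3h12a) did not pass, with adjusted p-values from 0.053 for Pias3 to 0.102 for Zc3h12a.

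Markers of cell types were read from the same libraries. All 8 myotube markers were expressed, with a summed level of 36793 to 39828 CPM in 2% HS and 30017 to 32379 in SD, and 3 (Ckm, Actn2 and Ttn) were lower in SD. Of 3 myoblast markers, Pax7 and Myod1 were lower. Over all genes tested 13.9% were called lower and 13.9% higher in SD vs. 2% HS. Of 8 leukocyte markers only Cd68 could be tested and was not called, their sum stayed between 1.91 and 5.00 CPM over all groups, and Adgre1 was at 0 in all 30 libraries. Of 4 fibro-adipogenic markers, Pdgfra, Pi16 and Cd34 were all higher in SD, and Dpp4 did not exceed 3 counts. Their sum was 21.3 to 25.9 CPM in 2% HS, 34.1 to 38.3 in SD and 37.4 to 43.5 with MET. It was 33.7 to 36.9 with LEU and 35.5 to 39.4 with MET+LEU. Like the means of Csf1, Cxcl12 and Cxcl14, its mean was higher in SD than in 2% HS. With MET it was highest, as for Cxcl12 and Cxcl14, while Csf1 was lowest there among the groups without serum. With MET+LEU its mean was above that of SD (38.4 and 35.7), where Cxcl12 and Cxcl14 were below. This order of means is a description only. In MET vs. SD and in MET+LEU vs. SD, 0 of the 3 tested fibro-adipogenic markers were called. Csf1, Cxcl12 and Cxcl14 were not called there either. The part of these markers in the SD vs. 2% HS difference of the 3 genes was not tested. None of 4 endothelial or 3 adipocyte markers passed the filter, with sums of at most 1.14 and 0.268 CPM.

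Levels of members were also compared across libraries, as a description of 30 points that share group and library. Csf1 and Cxcl14 had a Pearson r of 0.91 over all 30, and -0.03 once group means were removed, and Cxcl12 and Cxcl14 had 0.79 and -0.08. Within groups the member pairs ranged from -0.48, for Cxcl12 and Lif, to 0.35. Over all 30 libraries the genes most like each member were Trabd2b (r = 0.98) and Col6a2 (0.97) for Csf1, Tmem86a (0.97) and Angptl4 (0.96) for Cxcl14, Adamts16 (0.88) and Twf1 (0.84) for Cxcl12, and Hspg2 and Usp20 (both 0.87) for Lif. For the rarer transcripts they were Dbnl (0.84) and Ngef (0.79) for Cxcl1, Tacc1 and Igf1 (both 0.81) for Ccl7, and Bmper (0.72) and Gmds (0.71) for Il6.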

How the data were processed

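The authors deposited raw counts per Ensembl gene, whole numbers without normalization, for 30 stranded, ribosomal RNA-depleted total RNA libraries of C2C12 myotubes (5 groups of 6). The submitters' processing notes name cutadapt 1.16, STAR 2.7.6a, featureCounts 1.6.3, DESeq2 1.30.1 and GRCm38. The annotation release, the strand setting and the treatment of multi-mapping reads are not given in the sources used here. Symbols, coordinates and exon lengths came from GENCODE M21, which matched 55141 of 55487 identifiers.

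Counts were analysed in R 4.3.3 with edgeR 4.0.16. Genes were kept by filterByExpr (minimum count 10, minimum total 15, group size 6), which left 15907. After TMM scaling, a mean per group was fitted to all 30 libraries with glmQLFit (robust), and 8 contrasts between groups were tested by its quasi-likelihood F test. Adjusted p-values are Benjamini-Hochberg over all genes tested, with a threshold of 0.05. The SE is the absolute log2 fold change divided by the square root of F, and intervals are 95%. Correlations used log2 CPM with a prior count of 2. The test was tested on simulated data. Alternatives were DESeq2's size factors, upper-quartile scaling, the DESeq2 1.42.0 Wald test, genes with more than 5 counts in total, a fit to only the groups in a comparison, a block for the replicate number, and leaving out each library. Members and gene lists were chosen with earlier results of these data known. The members were all named, and of each other list at most the 4 called genes with the smallest p in MET+LEU vs. SD and as many in SD vs. 2% HS. The other receptors of the members were chosen after their values were seen. A gene of the list of other cytokines is not reported here.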

Additional observations from a re-analysis of the deposited data

Results flagged for a closer look

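Of 50 sets of 6 libraries (10 genes in 5 groups), 2 held a library set apart from the rest by Dixon's test, and chance gives about 1 in 20. Cxcl12 in MET+LEU replicate 3 was the lowest of its group, at 32.1 CPM, with the next at 36.7. Il6 in MET+LEU replicate 4 was the highest of its group, at 3.38 CPM, with the next at 2.43. Without these libraries the MET+LEU vs. 2% HS calls of both genes were kept, with adjusted p-values of 1.46e-06 for Cxcl12 and 0.0155 for Il6.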

How the results depend on the processing

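No called member, and no called list gene named by its smallest p, changed direction in any alternative run. Lifr and the cell type markers were not followed through these runs. For SD vs. 2% HS 4 members were called, and between 4 and 6 with a library left out. Under upper-quartile scaling Lif was an additional call (adjusted p = 0.0381). For MET+LEU vs. SD (1) and MET+LEU vs. 2% HS (7) the numbers were the same in each fit with a library left out. For MET+LEU vs. MET 2 members were called, 1 (Cxcl12) with only the groups compared, where Cxcl14 had an adjusted p of 0.056, and between 1 and 3 with a library left out. Lif was an additional call there under upper-quartile scaling (adjusted p = 0.0479) and by DESeq2's Wald test (adjusted p = 0.0465). In MET vs. SD, LEU vs. SD, MET+LEU vs. LEU and the interaction it was 0 in each alternative, where DESeq2 gave an adjusted p for 4, 6, 6 and 1 of the 7 members. With only the groups compared, Cxcl1 did not pass the filter in either comparison with 2% HS, which left 3 and 6 calls. Of 512 single-gene values under other settings 492 kept their side of the threshold, 15 lost a call and 5 gained one.

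Same-numbered libraries were little more alike than others: their deviations had a mean correlation of 0.0157 (from -0.0913 to 0.142, 60 pairs). That of different-numbered libraries was -0.00314 (from -0.17 to 0.181, 300 pairs). A mean over all genes cannot show that the samples were not paired. With the replicate block 3 members were called in MET+LEU vs. MET and 5 in SD vs. 2% HS, Lif being the additional one in both (adjusted p = 0.0496 and 0.0454), and no other number of members changed. Over all genes the block raised the calls of MET vs. SD from 25 to 52 and of the interaction from 8 to 17.

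Over all genes, calls of several comparisons moved by more than 1.5 times. DESeq2's Wald test gave 127 for MET vs. SD, 154 for LEU vs. SD (88 before) and 34 for the interaction. The interaction had 5 calls with DESeq2's size factors, 4 with upper-quartile scaling, 3 with the loose filter and 1 with only the groups compared. Only the groups compared gave 197 for LEU vs. SD, 1422 for MET+LEU vs. SD (2931 before), 311 for MET+LEU vs. LEU (999 before) and 589 for MET+LEU vs. MET (1382 before). Leaving out 1 library moved them this far in 9 of 30 fits for MET vs. SD (between 4, without MET replicate 4, and 160), 7 for LEU vs. SD (between 43, without LEU replicate 4, and 269), 5 for MET+LEU vs. LEU (lowest 396, without LEU replicate 3), 1 for MET+LEU vs. MET and 23 for the interaction (between 1 and 11). Without MET+LEU replicate 6 there were 160 for MET vs. SD, 269 for LEU vs. SD, 457 for MET+LEU vs. LEU and 726 for MET+LEU vs. MET, and no member's call changed apart from Lif in SD vs. 2% HS. With upper-quartile scaling the higher calls went from 3510 of 6734 to 3057 of 6731 in MET+LEU vs. 2% HS, from 733 of 999 to 417 of 773 in MET+LEU vs. LEU, and from 881 of 1382 to 631 of 1268 in MET+LEU vs. MET. The causes were not tested. Depth limits Cxcl1, Cxcl5, Cxcl10 and Ccl2, whose counts did not exceed 20 per library.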
